A study of Mus musculus with 6 samples.

Results

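The genes described here are 10 genes of the mitochondrial, or intrinsic, cell death pathway: Bcl2, Bcl2l1, Mcl1, Bax, Bak1, Bid, Bcl2l11 and Bbc3 of the Bcl2 family, with Trp53, which encodes p53, and Mdm2. They were taken by gene symbol from a count table of 54532 genes, and each symbol matched 1 gene. RNA-seq was performed on leptotene/zygotene (L/Z) spermatocytes, germ cells in the early stages of meiotic prophase I, sorted after Hoechst staining from mouse testes at 12 dpp (days postpartum), with 3 control and 3 Eef1g-cKO libraries. Control libraries are labelled Wild type and came from littermates per the study. Eef1g-cKO mice carry floxed Eef1g alleles on a C57BL/6J background and the Stra8-GFPCre transgene, which deletes several exons of Eef1g in germ cells from the type A1 spermatogonia onward. The product of Eef1g, eEF1G, belongs to the eEF1 complex of translation elongation. Nothing in the labels says which animals gave which library or how many animals were pooled, so p-values measure the spread between these libraries, and this spread may be partly technical.

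Proteins of the Bcl2 family decide whether the outer mitochondrial membrane stays intact. Anti-apoptotic members such as Bcl2, Bcl-xL (from Bcl2l1) and Mcl1 hold the effectors Bax and Bak in check, BH3-only members such as Bid, Bim (from Bcl2l11) and Puma (from Bbc3) release or activate those effectors, and open pores let cytochrome c out to start the caspase cascade. The transcription factor p53 can induce several of these genes together with Mdm2, whose product marks p53 for degradation, and in the testis this machinery removes surplus and arrested germ cells.

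The RNA of Bid, a pro-apoptotic gene, was reduced in the Eef1g-cKO libraries of sorted L/Z spermatocytes, to a mean of 0.285 of the control level. Bax, a second pro-apoptotic gene, was at 0.166 of the control level and passed the test as well, but it entered the test only through the control libraries, where it was high, and its call was lost in 8 of 19 alternative analyses, with adjusted p up to 0.229 by edgeR. The genotypes did not overlap in either gene. Summed markers of most other cell types were lower in Eef1g-cKO too, and the part of cell composition in these values was not tested. The most abundant survival gene, Mcl1, and a further one, Bcl2l1, did not pass the test. Mdm2 was higher in each Eef1g-cKO library than in any control library but missed the threshold. Trp53, Bcl2, Bbc3 and Bcl2l11 had too few reads for the test across genes, and Bak1 had none.

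Because Bid and Bax were lower together while Mdm2 and Mcl1 were not, the promoters of these 4 genes are shown as DNA that can be read beside the counts. Each line holds 300 bases, from 250 before to 50 after the gene's start, 5′ to 3′ on the gene's strand, from RefSeq on GRCm38.p6. The windows are chr6:120916775-120917074 (minus strand) for Bid, chr7:45466849-45467148 (minus strand) for Bax, chr10:117710709-117711008 (minus strand) for Mdm2 and chr3:95658471-95658770 (plus strand) for Mcl1. Capitals mark GC boxes (GGGCGG or its complement CCGCCC, the Sp1 motif), E-boxes (CACGTG) and the p53 decamer motif, each searched on both strands.
Bid: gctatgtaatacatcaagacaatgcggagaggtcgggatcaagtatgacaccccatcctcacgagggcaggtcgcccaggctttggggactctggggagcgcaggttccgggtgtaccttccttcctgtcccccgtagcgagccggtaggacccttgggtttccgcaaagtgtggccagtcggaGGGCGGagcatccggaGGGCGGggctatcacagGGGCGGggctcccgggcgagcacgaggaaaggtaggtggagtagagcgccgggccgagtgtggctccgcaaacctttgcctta
Bax: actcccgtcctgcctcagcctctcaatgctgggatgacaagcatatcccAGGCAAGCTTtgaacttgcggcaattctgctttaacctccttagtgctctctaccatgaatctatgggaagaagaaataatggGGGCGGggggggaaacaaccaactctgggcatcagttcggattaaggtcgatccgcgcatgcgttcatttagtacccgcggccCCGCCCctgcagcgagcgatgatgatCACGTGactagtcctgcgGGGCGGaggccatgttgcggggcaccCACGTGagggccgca
Mdm2: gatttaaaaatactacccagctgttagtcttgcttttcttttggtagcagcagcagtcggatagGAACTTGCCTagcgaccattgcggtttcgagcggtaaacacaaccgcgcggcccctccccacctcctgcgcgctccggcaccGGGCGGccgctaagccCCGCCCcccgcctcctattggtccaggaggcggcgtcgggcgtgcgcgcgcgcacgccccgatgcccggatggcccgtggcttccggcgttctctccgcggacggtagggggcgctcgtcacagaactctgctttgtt
Mcl1: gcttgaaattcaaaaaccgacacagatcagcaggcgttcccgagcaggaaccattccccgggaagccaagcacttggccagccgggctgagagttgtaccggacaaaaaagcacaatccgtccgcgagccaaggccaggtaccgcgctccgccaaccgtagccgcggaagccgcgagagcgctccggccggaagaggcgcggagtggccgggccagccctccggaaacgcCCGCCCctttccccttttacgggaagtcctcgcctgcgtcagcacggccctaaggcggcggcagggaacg

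The Bid window held 3 GC boxes and neither of the other motifs. The Bax window held 3 GC boxes, 2 E-boxes and 1 p53 decamer, whereas the Mdm2 window held 2 GC boxes and 1 p53 decamer and the Mcl1 window held 1 GC box. All 10 genes had at least 1 window in the RefSeq table, 15 windows in all, and a GC box was found in 7 of the 10 genes, an E-box in 3 and a p53 decamer in 3. Per promoter, these were 10, 3 and 3 of the 15 windows. Among all 32851 promoters of the table, 35.7% held a GC box, 7.15% an E-box and 8.36% a p53 decamer. The GC content of the 4 windows was 63.3% for Bid, 57.3% for Bax, 64.7% for Mdm2 and 65.7% for Mcl1, against a median of 52.7% over all promoters. The start that RefSeq gives for Mcl1 lay outside the GENCODE transcripts of that gene. All 4 windows held a GC box, and a p53 decamer was found in 1 of the 2 lower genes and in 1 of the other 2. These matches describe the letters only.

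Library totals ran from 763133 to 2617648 reads assigned to genes, and 8513 genes with enough reads were tested. Levels are given as CPM, reads of the gene for every 1000000 in the scaled library, and log2 fold changes compare Eef1g-cKO with control. The test was edgeR's quasi-likelihood F test, and p-values were corrected across the 8513 genes as Benjamini and Hochberg proposed. Of these genes, 7.8% were higher and 6.01% lower in Eef1g-cKO at an adjusted p under 0.05, and 3.42% were higher and 4.96% lower when an absolute log2 fold change over 1 was also required. Over all tested genes the median log2 fold change was -0.05. The last 2 shares are 291 and 422 genes, and the split was 181 higher and 515 lower with upper-quartile scaling and 141 higher and 531 lower with library totals alone. As the check of the labels, Eef1g itself had 222, 226 and 212 CPM in control replicates 1 to 3 and 139, 151 and 119 CPM in Eef1g-cKO replicates 1 to 3, a log2 fold change of -0.68 ± 0.20 (SE) at an adjusted p of 0.029 by edgeR. Eef1g was lower in each Eef1g-cKO library than in any control library, but RNA remained, and counts per gene do not separate transcripts with and without the deleted exons. This call was lost in 9 of 20 alternative analyses, with adjusted p up to 0.172.

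A gene entered the test when at least 3 libraries exceeded 6.70 CPM of unscaled reads. Mcl1, Mdm2 and Bid exceeded it in 6 of 6 libraries and Bcl2l1 in 5. Bax exceeded it in the 3 control libraries and in no Eef1g-cKO library, so it could be tested only through the genotype in which it was higher. Bcl2l11 exceeded it in 2 control libraries, Bcl2 in 1 Eef1g-cKO library and Trp53, Bbc3 and Bak1 in none. Thus 5 of the 10 genes were tested, and counts over these 5 are descriptions.

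**Figure D1:**
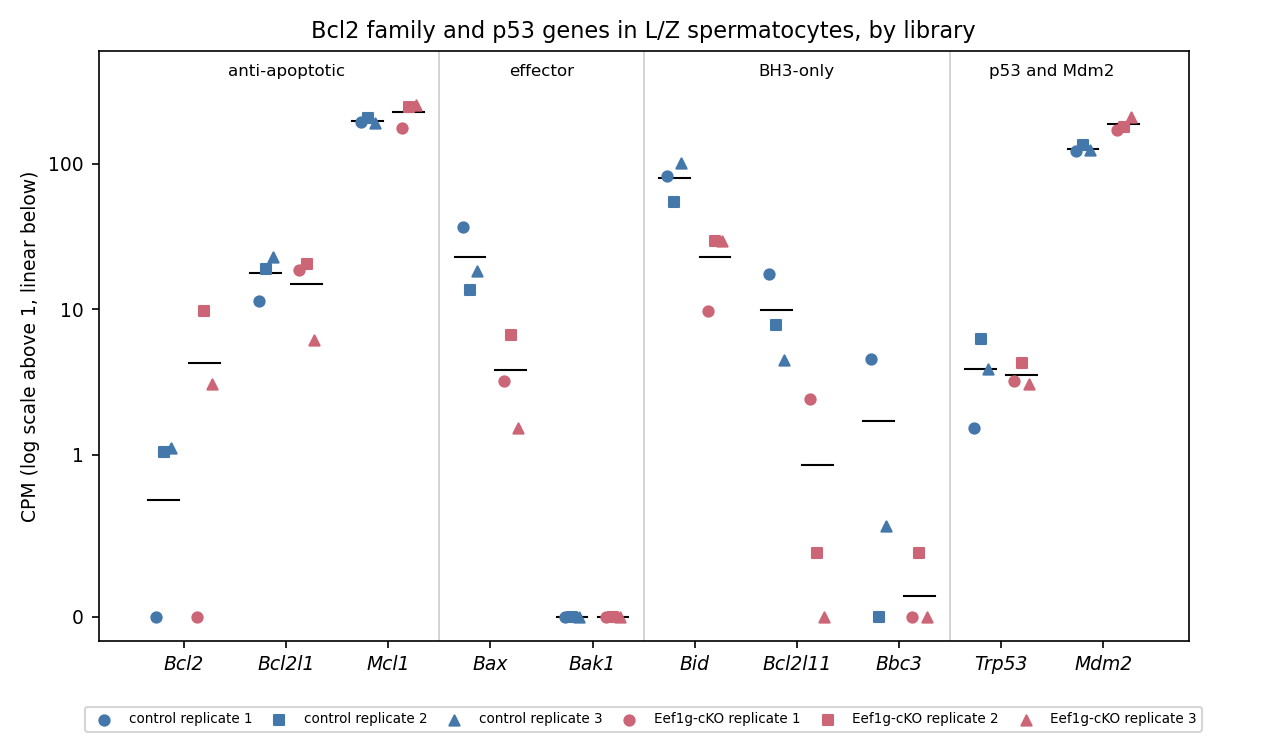
CPM of each of the 10 genes in each library, on an axis that is logarithmic above 1 and linear below it. Circles, squares and triangles are replicates 1, 2 and 3, blue is control, red is Eef1g-cKO, and black lines are group means. The groups of Bid, Bax and Bcl2l11 separate with Eef1g-cKO lower, those of Mdm2 separate with Eef1g-cKO higher, and those of the other genes overlap.

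Among the anti-apoptotic genes, Mcl1 encodes a short-lived survival protein (chr3:95658788-95663176, plus strand). It had 194, 206 and 193 CPM in control replicates 1 to 3 and 176, 248 and 253 CPM in Eef1g-cKO replicates 1 to 3. The genotypes overlapped, since the lowest Eef1g-cKO library lay below and the other two above the control libraries. Means were 197 ± 7.28 CPM (SD, n = 3) in control and 226 ± 43.1 CPM (SD, n = 3) in Eef1g-cKO. The log2 fold change was 0.19 ± 0.20 (SE), with a 95% interval from -0.23 to 0.61 and an adjusted p of 0.579 by edgeR.

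Bcl2l1, the gene of the survival protein Bcl-xL (chr2:152780668-152831728, minus strand), was measured with fewer reads. Control replicates 1 to 3 had 15, 36 and 41 reads, or 11.4, 18.9 and 23.0 CPM, and Eef1g-cKO replicates 1 to 3 had 23, 52 and 4 reads, or 18.6, 20.4 and 6.18 CPM. The genotypes overlapped, and the lowest value was in the shallowest library. The log2 fold change was -0.18 ± 0.58 (SE), the 95% interval from -1.39 to 1.02 admitted a change of more than 1 log2 unit in either direction, and the adjusted p was 0.872 by edgeR. The sign of this value turned under some alternative settings, from -0.44 to 0.16.

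Bcl2, the founding member of the family (chr1:106538178-106714274, minus strand), had 0, 2 and 2 reads in control replicates 1 to 3 and 0, 25 and 2 reads in Eef1g-cKO replicates 1 to 3. A single library, Eef1g-cKO replicate 2, thus held most of its reads. The ratio of pooled CPM, Eef1g-cKO to control, was 7.61 with a 95% counting interval from 2.65 to 29.9. This interval covers counting error only and rests on that library, the genotypes overlapped, and the exact permutation test over libraries gave a 2-sided p of 0.4, where the smallest possible value with 3 against 3 libraries is 0.1.

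Of the effectors, Bax forms pores in the outer mitochondrial membrane (chr7:45461697-45466898, minus strand). It had 48, 26 and 33 reads in control replicates 1 to 3, or 36.6, 13.6 and 18.5 CPM, and 4, 17 and 1 reads in Eef1g-cKO replicates 1 to 3, or 3.23, 6.67 and 1.54 CPM. Each Eef1g-cKO library was below each control library, and Eef1g-cKO replicate 3, the shallowest, held a single read. Bax shares 12.2% of its exon bases with Gm45808 on the same strand, which had 0 reads. Means were 22.9 ± 12.1 CPM (SD, n = 3) in control and 3.81 ± 2.61 CPM (SD, n = 3) in Eef1g-cKO, and the log2 fold change was -2.38 ± 0.70 (SE), with a 95% interval from -3.84 to -0.92 and an adjusted p of 0.0278 by edgeR. The direction was the same in all 19 alternative analyses that could test Bax, but the call was lost in 8 of them. Without control replicate 1, the highest library, the log2 fold change was -1.90 and the adjusted p 0.229. Without control replicate 3 the adjusted p was 0.0767, and without Eef1g-cKO replicate 1 it was 0.0777. With a correction for transcript GC content the log2 fold change was -1.86 and the adjusted p 0.0864, and with limma-voom they were -2.11 and 0.095.

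The second effector gene, Bak1 (chr17:27019810-27029009, minus strand), had 0 reads in all 6 libraries. Over the 9467217 reads of the series this allows a level of up to 0.317 CPM, the level that 3 reads would give. Bak1 shares 25.5% of its exon bases with Ggnbp1 on the opposite strand, and whether the counting used strand is not stated, so reads in that stretch could have been set aside. The count of 0 therefore limits assigned reads, and for the shared stretch it does not limit transcription of Bak1.

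Among the BH3-only genes, Bid links death receptors to mitochondria when its product is cut by caspases (chr6:120891930-120916853, minus strand). It had 109, 105 and 182 reads in control replicates 1 to 3, or 83.2, 55.1 and 101.9 CPM, and 12, 75 and 19 reads in Eef1g-cKO replicates 1 to 3, or 9.70, 29.4 and 29.3 CPM. The highest Eef1g-cKO library was below the lowest control library. Means were 80.1 ± 23.5 CPM (SD, n = 3) and 22.8 ± 11.4 CPM (SD, n = 3), and the log2 fold change was -1.81 ± 0.41 (SE), with a 95% interval from -2.67 to -0.95 and an adjusted p of 0.0061 by edgeR. Bid passed the test in 19 of 20 alternative analyses and was lost without control replicate 3, where the log2 fold change was -1.59 and the adjusted p 0.058. It shares 17.7% of its exon bases with Bcl2l13 on the opposite strand, which had 142 reads in all against 502 for Bid.

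The gene of Bim, Bcl2l11 (chr2:128126038-128162547, plus strand), a BH3-only activator of Bax, had 23, 15 and 8 reads in control replicates 1 to 3 and 3, 1 and 0 reads in Eef1g-cKO replicates 1 to 3. These are 17.6, 7.87 and 4.48 CPM against 2.43, 0.39 and 0 CPM. The genotypes did not overlap. The pooled ratio of Eef1g-cKO to control was 0.0981, with a 95% counting interval from 0.0256 to 0.269, and the exact permutation p over libraries was 0.1, the smallest that 3 against 3 libraries can give. When all genes with a read were tested without the filter, its log2 fold change was -3.19 and its adjusted p 0.146 by edgeR. Its lower level in Eef1g-cKO is therefore not a call. Over the 22130 genes of that fit the median log2 fold change was -0.30, against -0.05 over the 8513 genes kept by the filter.

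Puma is encoded by Bbc3, a classical p53 target (chr7:16308393-16318205, plus strand). Its reads were 6, 0 and 1 in control replicates 1 to 3 and 0, 1 and 0 in Eef1g-cKO replicates 1 to 3. The genotypes overlapped, and a ratio of 0.161 had a 95% counting interval from 0.0036 to 1.25, so a difference was not detectable at this depth (exact permutation p = 0.4).

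Trp53 (chr11:69580359-69591873, plus strand) encodes p53, whose amount in cells is set largely by protein stability. It had 2, 12 and 7 reads in control replicates 1 to 3 and 4, 11 and 2 reads in Eef1g-cKO replicates 1 to 3. The genotypes overlapped, with 3.91 ± 2.39 CPM (SD, n = 3) in control and 3.55 ± 0.67 CPM (SD, n = 3) in Eef1g-cKO. The pooled ratio was 0.913, with a 95% counting interval from 0.452 to 1.82, and the exact permutation p was 0.8.

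Mdm2 (chr10:117688875-117710758, minus strand) encodes the ubiquitin ligase of p53. It had 161, 259 and 222 reads in control replicates 1 to 3, or 122.9, 136.0 and 124.3 CPM, and 212, 457 and 136 reads in Eef1g-cKO replicates 1 to 3, or 171.4, 179.2 and 210.1 CPM. Each Eef1g-cKO library was above each control library. Means were 128 ± 7.18 CPM (SD, n = 3) and 187 ± 20.4 CPM (SD, n = 3), and the log2 fold change was 0.54 ± 0.21 (SE), with a 95% interval from 0.11 to 0.98. The unadjusted p was 0.0176 and the adjusted p 0.0929 by edgeR, and Mdm2 passed the threshold in none of 20 alternative analyses, where the adjusted p ran from 0.0784 to 0.293.

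Of the 5 tested genes, 2 (Bid and Bax) were lower by edgeR and DESeq2 and 1 (Bid) by limma-voom, beside 6.01% of all tested genes by edgeR, and both had an absolute log2 fold change over 1 (background 4.96%). The filter that kept Bax favoured its direction, so this count is read as a description. Higher were 0 of the 5 by each tool, beside 7.8% of all tested genes by edgeR, while 1 gene, Mdm2, passed an unadjusted p under 0.05 upward. Among all tested genes the genotypes did not overlap for 18.1% with Eef1g-cKO lower, as for Bid and Bax, and for 16.4% with Eef1g-cKO higher, as for Mdm2. The summed level of the 10 genes overlapped between the genotypes, at 444.6 to 471.7 CPM in control and 384.9 to 506.6 CPM in Eef1g-cKO. With every library thinned to 763133 reads, Bid had 72, 42 and 90 reads in control and 6, 26 and 19 in Eef1g-cKO, and Bax had 29, 15 and 11 against 2, 4 and 1.

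**Figure D2:**
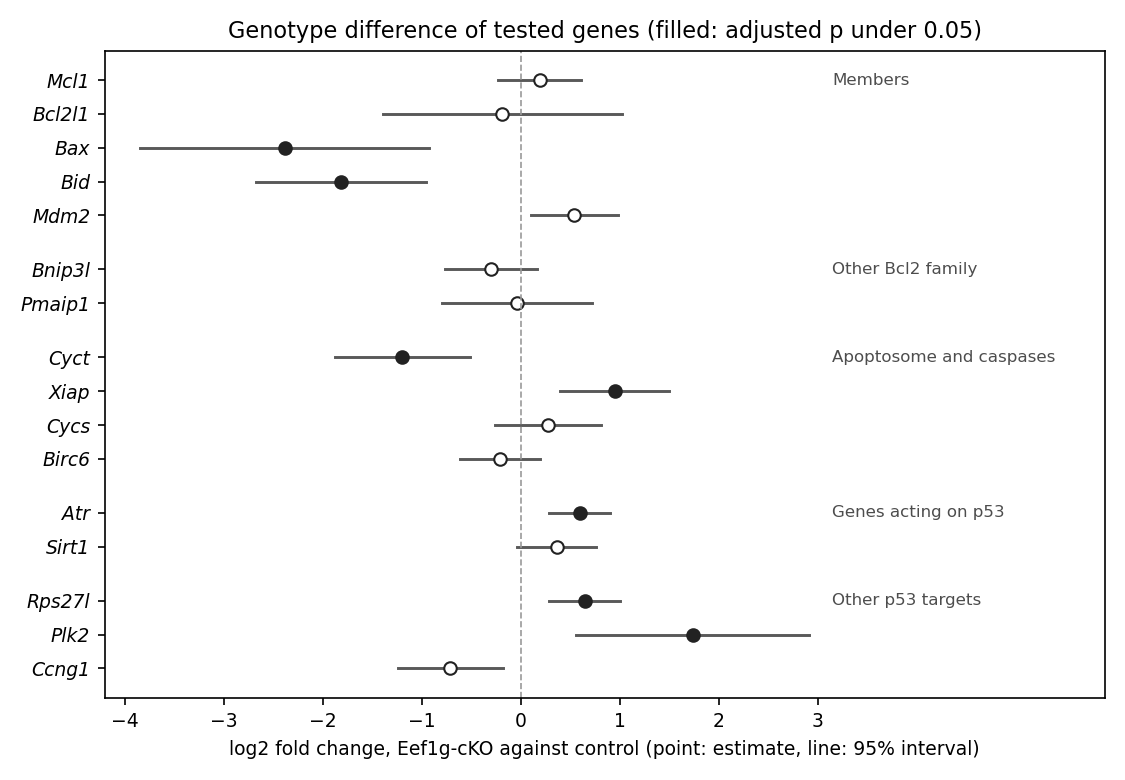
Log2 fold change of Eef1g-cKO against control with its 95% interval for the 5 tested members of the 10 genes and for the named genes of the lists of other Bcl2 family genes, apoptosome and caspase genes, genes acting on p53 and other p53 targets, with Ripk1 not drawn. Filled points passed an adjusted p under 0.05. Among the genes drawn, Bax (-2.38) and Bid (-1.81) lie farthest to the left and Plk2 (1.74) farthest to the right.

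Levels of different genes were compared as reads per kilobase of gene length per 1000000 reads of the scaled library (RPKM). The length is the annotation value given with the counts. For Mcl1 it equals the longest transcript (3418 bases), and for the other genes it is longer. It was 4586 against 2568 bases for Bcl2l1, 5083 against 3145 for Mdm2 and 1576 against 1100 for Bax. RPKM of those genes is thus lower beside Mcl1 than with the longest transcript, and orders and shares across genes depend on this choice. In control libraries the order of means was Mcl1 at 57.8 RPKM, Mdm2 at 25.1, Bid at 22.6, Bax at 14.5, Bcl2l1 at 3.87, Bcl2l11 at 1.24, Trp53 at 0.968, Bbc3 at 0.807 and Bcl2 at 0.079 RPKM, with Bak1 at 0. Mcl1 stood clear of Mdm2, whereas Mdm2 overlapped Bid and Bid overlapped Bax over their 3 libraries. Bcl2l1 was separate from both neighbours, and from Bcl2l11 down the neighbours overlapped. In Eef1g-cKO libraries Mcl1 at 66.1 RPKM and Mdm2 at 36.8 RPKM again led without overlap. Bid followed at 6.43, Bcl2l1 at 3.28, Bax at 2.42, Trp53 at 0.877, Bcl2 at 0.469, Bcl2l11 at 0.117 and Bbc3 at 0.0615 RPKM, and each of these overlapped the next. Bid and Mdm2 overlapped in control and were apart in Eef1g-cKO, and Bax passed from above Bcl2l1 to overlapping it.

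The 8 Bcl2 family genes can also be read as a balance of roles within a library, which does not depend on library scaling. The anti-apoptotic genes Mcl1, Bcl2l1 and Bcl2 made up 53.7%, 71.9% and 59.8% of the summed RPKM in control replicates 1 to 3 and 91.6%, 86.0% and 89.1% in Eef1g-cKO replicates 1 to 3. Each Eef1g-cKO library exceeded each control library. Effector genes made up 21.1%, 9.66% and 11.4% in control against 3.38%, 4.65% and 1.15% in Eef1g-cKO, and BH3-only genes 25.2%, 18.4% and 28.7% against 5.00%, 9.37% and 9.72%. The summed anti-apoptotic RPKM overlapped between the genotypes, at 61.7 ± 2.62 (SD, n = 3) in control and 69.9 ± 12.4 (SD, n = 3) in Eef1g-cKO, and Mcl1 alone was 91.7% to 97.8% of it. The summed BH3-only RPKM was 24.6 ± 7.06 (SD, n = 3) against 6.61 ± 3.09 (SD, n = 3), most of it Bid. These shares come from the same counts as the single genes and were not tested separately. They cover the 8 genes only. The BH3-only gene Pmaip1, outside the 8, had a mean of 21.3 RPKM in control and 20.8 RPKM in Eef1g-cKO. By library, Pmaip1 had 15.6, 21.6 and 26.7 RPKM in control replicates 1 to 3 and 31.5, 14.1 and 16.9 RPKM in Eef1g-cKO replicates 1 to 3. The summed RPKM of the 8 genes was 110.2, 89.6 and 102.7 in control and 60.7, 90.9 and 85.0 in Eef1g-cKO. Counting Pmaip1 would lower the anti-apoptotic share in each library of both genotypes, most in Eef1g-cKO replicate 1. The separation of the genotypes would narrow, so its size depends on the genes chosen.

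**Figure D3:**
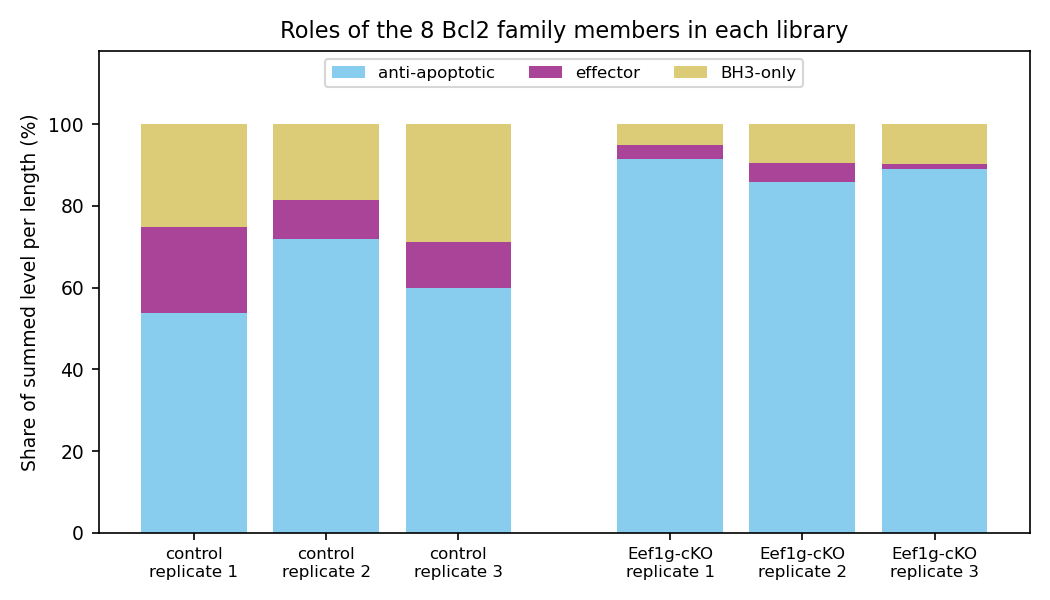
Share of the summed RPKM of the 8 Bcl2 family genes taken by anti-apoptotic genes (Bcl2, Bcl2l1, Mcl1), effectors (Bax, Bak1) and BH3-only genes (Bid, Bcl2l11, Bbc3), as stacked bars per library in percent. The anti-apoptotic share lies between 53.7% and 71.9% in the control libraries and between 86.0% and 91.6% in the Eef1g-cKO libraries. Other Bcl2 family genes, such as the BH3-only gene Pmaip1, are not in these shares, and counting Pmaip1 would narrow the separation of the genotypes.

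The summed markers of most other cell types were lower in Eef1g-cKO, as were Bid, Bax and Bcl2l11. In bulk samples, fewer cells of a type and less RNA per cell cannot be told apart. Over all tested genes 6.01% were lower and 7.8% higher by edgeR, the background for the marker counts. Of 10 spermatogonial markers 5 were tested and 4 were lower in Eef1g-cKO (Uchl1, Sall4, Kit and Sohlh1). The summed level of the 10 was 618.4 to 765.8 CPM in control against 214.1 to 259.6 CPM in Eef1g-cKO. Nanos3 and Lin28a were at 0 in Eef1g-cKO. Control replicates 1 to 3 held 2, 6 and 6 reads of Nanos3 and 18, 5 and 13 of Lin28a. Of 10 Sertoli cell markers 5 were tested and 3 were lower (Aard, Cldn11 and Clu), with sums of 152.7 to 481.4 CPM against 26.3 to 91.4 CPM. Cldn11 had 5, 1 and 0 reads in Eef1g-cKO replicates 1 to 3 and entered the test only through the control libraries. Amh, Gata4 and Dhh were at 0 in Eef1g-cKO. Control replicates 1 to 3 held few of their reads: Amh 0, 0 and 2, Gata4 0, 2 and 2, and Dhh 4, 7 and 0. Rhox5 went the other way, with 0, 8 and 0 reads in control replicates 1 to 3 and 0, 18 and 0 in Eef1g-cKO. Of 7 peritubular and stromal markers 5 were tested and 4 were lower (Dcn, Col3a1, Col1a2 and Col1a1), at 188.5 to 321.3 CPM against 18.5 to 78.8 CPM, with none at 0 in either genotype. Col3a1 had 4, 13 and 0 reads in Eef1g-cKO replicates 1 to 3 and also entered the test only through the control libraries. The mean sums fell from 714.0 to 238.2 CPM for spermatogonia, from 287.8 to 67.7 CPM for Sertoli cells and from 250.4 to 50.8 CPM for stromal cells, and none of these 3 sums overlapped between the genotypes.

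Of 10 symbols for pachytene and later germ cell markers, 9 were in the table, and the other, H1f6, is another name of Hist1h1t. Of the 9, 2 were tested and 1 was lower (Piwil1). Sums were 25.7 to 42.5 CPM in control and 3.1 to 16.1 CPM in Eef1g-cKO. Acrv1 was at 0 throughout, Pgk2 and Prm1 had 2 reads each, all in Eef1g-cKO, and Ccna1, Tnp1 and Spata16 were at 0 in Eef1g-cKO. Hist1h1t went the other way from the sum, with 1, 0 and 4 reads in control replicates 1 to 3 and 6, 0 and 2 in Eef1g-cKO. Piwil1 had 0, 1 and 0 reads in Eef1g-cKO replicates 1 to 3 and entered the test only through the control libraries. None of 5 Leydig cell markers was tested, their sums were 8.4 to 10.7 CPM against 1.6 to 6.5 CPM, and Hsd3b1 and Cyp17a1 were at 0 throughout. Of 8 blood and macrophage markers 1 was tested and none passed by edgeR, the sums overlapped at 7.8 to 96.2 CPM against 3.2 to 94.2 CPM, and Cd68 and Csf1r were at 0 throughout. The early meiotic list was present and higher, since 8 of its 11 tested markers rose in Eef1g-cKO (background 7.8%). These were Sycp1, Sycp2, Sycp3, Dmc1, Hormad1, Meioc, Ddx4 and Dazl. Ddx4 and Dazl are not particular to L/Z cells: the study used the product of Ddx4 to mark germ cells and listed Dazl among other spermatogenesis-related genes. The sums of this list were 14994.5 to 16749.5 CPM in control and 33143.9 to 40585.4 CPM in Eef1g-cKO. By immunostaining of sorted cells, the study reported a comparable share of L/Z spermatocytes in the sorts of both genotypes. The part of cell composition in the Bid, Bax and Bcl2l11 values was not tested.

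**Figure D4:**
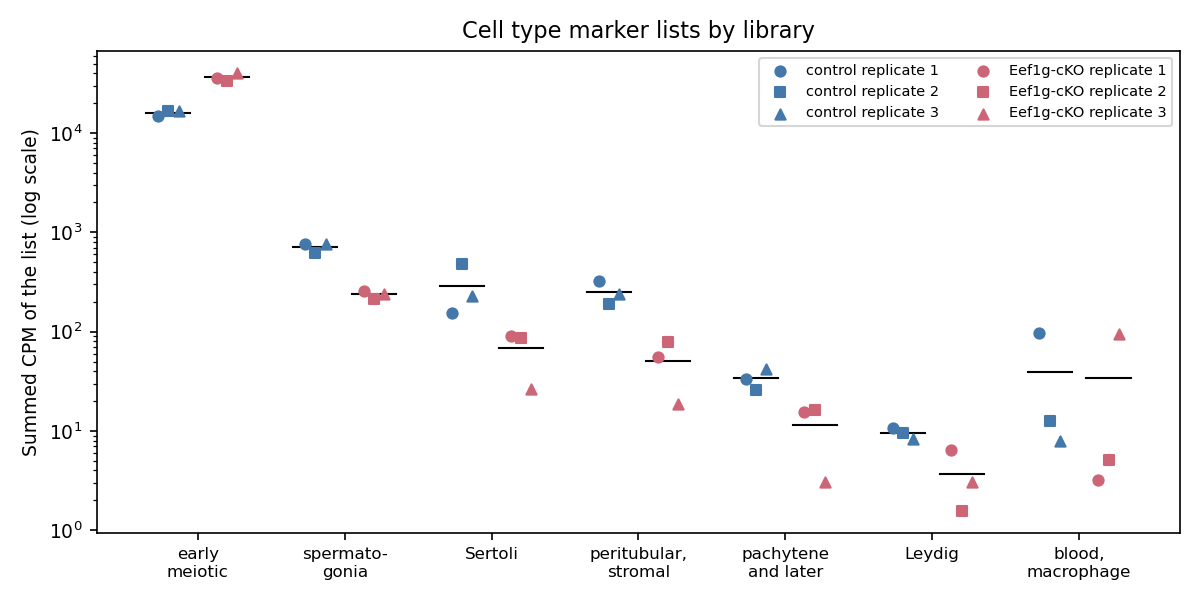
Summed CPM of each cell type marker list in each library, on a log axis, with replicates 1 to 3 as circles, squares and triangles, control in blue, Eef1g-cKO in red and group means as black lines. The early meiotic sum is higher in Eef1g-cKO, all other sums but that of blood and macrophages are lower without overlap, and the blood sum overlaps.

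The 3 tested genes whose log2 CPM pattern over the 6 libraries lay closest to that of Bid were Marcks, Ctdspl and Ehmt2. Their root mean square differences from Bid, after centring each gene on its own mean, were 0.18, 0.20 and 0.23 log2 units, and their log2 fold changes were -1.75, -1.78 and -2.10. Marcks encodes an actin-binding substrate of protein kinase C, Ctdspl a phosphatase, and Ehmt2 a histone H3 methyltransferase. Likeness was measured over the same libraries that differ in genotype, so genes with a like genotype difference rank high by construction.

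Of 19 further Bcl2 family genes, 7 were tested and 0 passed in either direction by edgeR, with a median log2 fold change of -0.08, close to the -0.05 of all tested genes. By DESeq2 and limma-voom 0 passed as well, and 0 had an unadjusted p under 0.05 by any of these tools. The most abundant were Bnip3l, a mitophagy receptor with BH3-like sequence, at 149.4 CPM in control libraries against 121.7 CPM (log2 fold change -0.30, adjusted p = 0.416), and Pmaip1, which encodes the BH3-only protein Noxa. Pmaip1 had 41.2, 57.2 and 70.5 CPM in control replicates 1 to 3 and 83.3, 37.2 and 44.8 CPM in Eef1g-cKO replicates 1 to 3. The genotypes overlapped, and its log2 fold change was -0.04 ± 0.36 (SE) at an adjusted p of 0.958 by edgeR. Chosen after its values were seen, the untested BH3-only gene Bmf had 16, 23 and 7 reads in control replicates 1 to 3 and 1, 0 and 0 in Eef1g-cKO replicates 1 to 3, without overlap. Bmf was tested and was lower by edgeR without the filter (adjusted p = 0.039), without Eef1g-cKO replicate 1 (0.0355) and without Eef1g-cKO replicate 3 (0.0401), the only calls of this list under any setting. In the fits that left out a library, Bmf entered the test only through the control libraries, where it was higher. The calls of Bmf are therefore descriptions.

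Downstream of mitochondria, 15 of 20 apoptosome, caspase and inhibitor of apoptosis genes were tested, with 1 higher, 1 lower and a median log2 fold change of -0.21. These counts, 1 of 15 in each direction, are near the background of 7.8% higher and 6.01% lower. Xiap, which encodes a direct caspase inhibitor, had 53.4, 84.0 and 99.1 CPM in control replicates 1 to 3 and 173.9, 153.3 and 131.3 CPM in Eef1g-cKO replicates 1 to 3. The genotypes did not overlap, and its log2 fold change was 0.95 ± 0.26 (SE) at an adjusted p of 0.0204 by edgeR. Cyct, the testis form of cytochrome c, had 91.6, 80.8 and 101.3 CPM in control replicates 1 to 3 and 25.1, 52.5 and 40.2 CPM in Eef1g-cKO replicates 1 to 3. It was lower without overlap, with a log2 fold change of -1.20 ± 0.33 (SE) and an adjusted p of 0.0187 by edgeR. The most abundant genes of this list did not pass: Cycs, the somatic cytochrome c, had a log2 fold change of 0.28 with an adjusted p of 0.521, and Birc6, a large inhibitor of apoptosis protein, had -0.21 with 0.530 by edgeR. Xiap lost its call without control replicate 1 (adjusted p = 0.111 by edgeR), control replicate 2 (0.0613) or Eef1g-cKO replicate 1 (0.073). Cyct lost it without any control replicate (0.0504 to 0.0986 by edgeR) or without Eef1g-cKO replicate 1 (0.0872). Of 14 alternatives on all libraries, Xiap lost its call in 4, with library totals, the GC correction, and the replicate block with the length or GC correction (0.0631 to 0.241 by edgeR), and Cyct in 1, the replicate block with the length correction (0.0646).

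Of 20 genes that act on p53 or are its homologues, 15 were tested, 1 was higher (background 7.8%) and 0 were lower (background 6.01%) by edgeR, DESeq2 or limma-voom, and the median log2 fold change was 0.21. At an unadjusted p under 0.05, 2 were higher by edgeR, 2 by DESeq2 and 3 by limma-voom, and 0 were lower by any of them. The gene that rose was Atr, a kinase of the DNA damage response that is also active on unsynapsed meiotic chromosomes. It had 448.8, 447.8 and 477.5 CPM in control replicates 1 to 3 and 655.0, 696.3 and 726.0 CPM in Eef1g-cKO replicates 1 to 3. The genotypes did not overlap, and the log2 fold change was 0.60 ± 0.15 (SE) at an adjusted p of 0.0118 by edgeR, which became 0.0525 without control replicate 1 and 0.0673 without control replicate 2. Of 14 alternatives on all libraries, Atr lost its call in 5, with library totals, the length or GC correction, and the replicate block with either correction (adjusted p 0.0507 to 0.32 by edgeR). Sirt1, the next most abundant gene, encodes a deacetylase of p53 and had a log2 fold change of 0.37 with an adjusted p of 0.223.

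Of 26 further p53 target genes, 13 were tested, 2 were higher and 0 were lower by edgeR, and the median log2 fold change was -0.12. The backgrounds were 7.8% higher and 6.01% lower. By DESeq2 0 were lower as well, by limma-voom 1 was, and 2 had an unadjusted p under 0.05 downward by each tool. Rps27l, a p53-induced paralogue of a ribosomal protein gene, had 1414.2 ± 194.8 CPM (SD, n = 3) in control and 2209.8 ± 542.0 CPM (SD, n = 3) in Eef1g-cKO. The genotypes overlapped, and the log2 fold change was 0.65 ± 0.17 (SE) at an adjusted p of 0.0164 by edgeR, which lay between 0.0592 and 0.100 without control replicate 1 or 2 or Eef1g-cKO replicate 1 or 2. Plk2, a polo-like kinase gene, had 11, 12 and 26 reads in control replicates 1 to 3 and 27, 137 and 13 reads in Eef1g-cKO replicates 1 to 3. Its CPM did not overlap between the genotypes, and the log2 fold change was 1.74 ± 0.56 (SE) at an adjusted p of 0.0458 by edgeR. Without Eef1g-cKO replicate 2, which held most of its reads, the log2 fold change was 1.11 and the adjusted p 0.287, and without control replicate 1, 2 or 3 the adjusted p was 0.150, 0.177 or 0.0663. Of 14 alternatives on all libraries, Rps27l lost its call in 3, with library totals, the GC correction and the replicate block with GC correction (0.104 to 0.193 by edgeR), and Plk2 in 9 (0.0505 to 0.123 by edgeR), so that 0 to 2 of the p53 targets were higher, and 0 or 1 lower, over these alternatives. Ccng1, which encodes cyclin G1, had 151.2 ± 17.4 CPM (SD, n = 3) against 90.8 ± 26.7 CPM (SD, n = 3), and its log2 fold change of -0.71 had an adjusted p of 0.0685. Chosen after its values were seen, the cell cycle inhibitor gene Cdkn1a, the best known p53 target, had 1, 5 and 4 reads in control replicates 1 to 3 and 0 in each Eef1g-cKO library, too few to be tested. No single direction held for the p53 targets, and Mdm2, Plk2 and Rps27l lay above 0 while Bax and Ccng1 lay below.

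Of 9 death receptor pathway genes only Ripk1, the gene of a death receptor kinase, was tested, and it entered the test only through the control libraries. It had 8.29 ± 1.47 CPM (SD, n = 3) in control and 3.70 ± 3.33 CPM (SD, n = 3) in Eef1g-cKO, its log2 fold change was -1.32 (adjusted p = 0.452 by edgeR), and 0 genes of this list passed. By DESeq2 it did not pass either, and by limma-voom it passed at an unadjusted p under 0.05 alone. The summed level of the 9 genes was 20.5 to 40.3 CPM in control and 2.4 to 19.4 CPM in Eef1g-cKO. Tnfsf10, Tradd and Mlkl were at 0 in Eef1g-cKO, and the control libraries together held 2, 5 and 17 of their reads. Fasl went the other way, at 0 in control and with 4 reads in Eef1g-cKO.

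**Figure D5:**
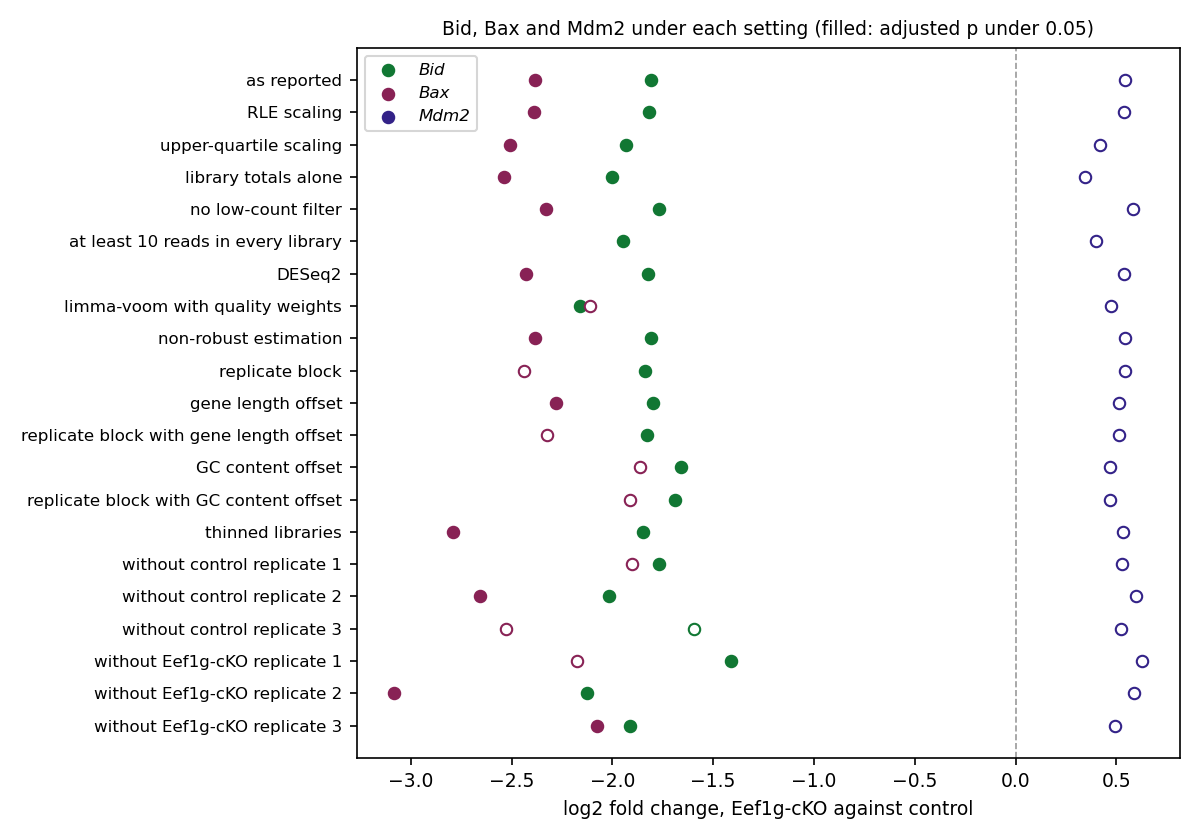
Log2 fold change of Bid (green), Bax (purple) and Mdm2 (blue), Eef1g-cKO against control, as reported and under each alternative setting, with filled points at an adjusted p under 0.05. Bid stays below 0 throughout and is open only without control replicate 3, Bax stays below 0 and is open in 8 settings, and Mdm2 stays above 0 and is open in all.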

How the data were processed

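RNA was measured in 3 control and 3 Eef1g-cKO libraries of sorted L/Z spermatocytes, prepared from polyadenylated RNA with a full-length low-input kit without molecular identifiers, so counting intervals and the floor of 3 reads cover counting error only. The authors cleaned 150 bp paired-end reads with fastp, aligned them to GRCm38 with HISAT2 and counted them per gene with featureCounts. The deposited values are raw read counts, with each gene's length, an annotation value of the authors, beside them. The use of strand and the handling of reads with several alignments are not given in the sources used here. Groups and replicate numbers came from the sample titles. Of the gene IDs, 54495 were found in GENCODE release M21, and 98.3% of these had the same position there.

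The 10 genes and the gene and marker lists were chosen with earlier results of these data known. Genes were tested with edgeR 4.0.16 (R 4.3.3): filterByExpr (minimum count 10, minimum total 15) kept 8513 genes with 98.1% of the reads, TMM scaled the libraries, and the robust quasi-likelihood F test had genotype as its only term. Standard errors are the absolute log2 fold change over the square root of F, and 95% intervals use the test's degrees of freedom. A call is an adjusted p under 0.05, and the limit of 1 on the absolute log2 fold change is the study's. Named from the lists were genes that passed, at most 6 by p, and the 2 tested genes of highest mean CPM, with exceptions remarked. Untested members were compared by pooled CPM with an exact conditional interval and by exact 2-sided permutation of mean CPM. The script was tested on simulated counts. No 2 libraries agreed within sampling noise, with a chi-square per degree of freedom of at least 6.37. Alternatives tried: scaling by RLE, upper quartiles or library totals, 2 other filters, DESeq2 1.42.0, limma-voom (limma 3.58.1), non-robust estimation, replicate blocks, length and GC corrections, thinning, and leaving out each library.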

Additional observations from a re-analysis of the deposited data

How the results depend on the processing

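Scaling moved all genes together: relative to TMM the median log2 fold change of tested genes shifted by -0.12 with upper-quartile scaling and by -0.19 with library totals, while Bid relative to the median stayed at -1.76 in both and Mdm2 at 0.58 to 0.59. With library totals Mcl1 turned to -0.00 (-0.0032). Bcl2l1 turned positive with the GC correction (0.13), with the replicate block and GC correction (0.0869), without control replicate 3 (0.04) and without Eef1g-cKO replicate 3 (0.16), within a range of -0.44 to 0.16 when 1 library was left out. Called higher were 181 genes with upper-quartile scaling, 141 with library totals, 177 with at least 10 reads in every library, 182 with the replicate block and GC correction, and 664 without the fold change limit, against 291. Called lower were 250 genes with at least 10 reads in every library, against 422. Leaving out 1 library gave 229 to 356 higher and 207 to 548 lower genes. Of the 10 genes, 1 instead of 2 was lower with at least 10 reads in every library, limma-voom, the GC correction, the replicate block, and the block with the length or the GC correction, and 0 to 2 were lower when 1 library was left out. With at least 10 reads in every library Bax and Bcl2l1 could not be tested.

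Same-numbered libraries did not deviate together over the tested genes (correlations of -0.04, 0.02 and -0.05). These correlations cannot show whether such libraries came from littermates or were prepared together, which the labels do not say. With the replicate block Bax had a log2 fold change of -2.44 and an adjusted p of 0.0641 by edgeR, 0.0783 with the block and length correction and 0.151 with the block and GC correction, and Bid remained below an adjusted p of 0.05. The cause of these differences was not tested. Low counts limit Bax, Bcl2l11, Bbc3, Bcl2 and Trp53 most: 3 reads correspond to 1.18 to 4.63 CPM in these libraries. Genes with a read numbered 14903, 15761 and 15333 in control replicates 1 to 3 and 12770, 14514 and 11174 in Eef1g-cKO replicates 1 to 3. Eef1g-cKO replicate 2, the deepest library, thus had fewer than each control library. Low or absent reads of Bcl2l11, Bbc3, Bmf, Cdkn1a and the death receptor genes in Eef1g-cKO are to be read beside this. The shares of genes without overlap cover tested genes only.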
